A study of Homo sapiens with 3 samples.

Results

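The genes examined were the transcription factor subunits *HIF1A* and *EPAS1*, the tumor suppressor *VHL*, the oxygen sensor *EGLN3* and the hypoxia targets *CA9*, *VEGFA*, *ADM*, *NDRG1*, *BNIP3* and *ANKRD37*, which are 10 of the 44591 genes in the table. They were taken by name, as genes of the cellular response to low oxygen. The choice was made with earlier results of these data known, so the shares of all genes set beside their counts are descriptive only. Caki-1 cells, an established line of clear cell renal carcinoma, were transfected for 48 h with control siRNA (si-Control), with si-HOIL-1#1 or with si-HOIL-1#2. The latter 2 reagents target RBCK1, whose other name is HOIL-1. The cells were not exposed to hypoxia in any description used here, and the general transfection protocol used 10 nmol/L siRNA. There was 1 library per condition, so the differences could not be set against a spread between replicates, no p-value was computed, and the 2 siRNAs were treated as different reagents. Caki-1 cells stand for a single tumor line in culture, and a transfection lowers its target without removing it.

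Hypoxia-inducible factor is a pair of an oxygen-regulated alpha subunit, HIF-1α from *HIF1A* or HIF-2α from *EPAS1*, and a constant beta subunit, ARNT. With oxygen present, prolyl hydroxylases of the EGLN family mark the alpha subunit, the VHL ubiquitin ligase binds the mark and the proteasome destroys the subunit; with little oxygen the subunit persists and switches on genes for angiogenesis, acid handling, glycolysis and mitophagy. Loss of *VHL* is the hallmark of clear cell renal carcinoma, whereas Caki-1 is generally described as having kept a functional *VHL* gene. Control of HIF-1α by oxygen acts mainly on the protein, which was not measured in these libraries. RBCK1 belongs to the linear ubiquitin ligase complex, and the study asked what its depletion does to signaling in renal carcinoma cells.

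Levels are given in RPKM, reads scaled to gene length and library size, a unit inferred from the values. The steps between low RPKM values showed that the libraries were scaled by 36926834 reads (si-Control), 40442939 reads (si-HOIL-1#1) and 36344428 reads (si-HOIL-1#2). With these totals, whole reads were found for 12388 of the 12403 genes whose mean reached 1 RPKM (99.9%). The reads given below are the smallest whole numbers that yield a gene's 3 values, so the true reads may be a multiple of them. A multiple would narrow the exact 95% intervals, which cover counting error only and take each read as counted independently. Whether the mates of a pair were counted singly is not given in the sources used here. Differences are log2 ratios to si-Control after adding 1 RPKM, a pseudocount that shrinks the ratios of weakly expressed genes. Of the renal markers, *PAX8* (82.5 to 124 RPKM), *KRT8*, *KRT18*, *VIM* and *CD70* passed 1 RPKM, whereas *PAX2* (0 to 0.064 RPKM), *LHX1* (0.371 to 1.38 RPKM) and *CDH16* (0.261 to 0.468 RPKM) did not. The endothelial and leukocyte markers *PECAM1*, *CDH5*, *TEK* and *PTPRC* were at most 0.028 RPKM, and the macrophage-associated lysosomal gene *CD68* was at 41.8 to 52.3 RPKM.

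The targeted gene, *RBCK1*, had 5294 reads in the si-Control library, 1735 in the si-HOIL-1#1 library and 1917 in the si-HOIL-1#2 library (33.3, 9.97 and 12.3 RPKM). It was lower with each siRNA against it, with log2 ratios of -1.65 and -1.37. The sense strands of the siRNAs with these numbers in the study's reagent list are shown because they are the only designed difference between the libraries; capitals mark the bases that pair with guide positions 2 to 8, the seed.
si-HOIL-1#1: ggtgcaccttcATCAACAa
si-HOIL-1#2: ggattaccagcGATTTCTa

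The 10 genes spanned a wide range of levels in si-Control cells, as the plot of levels by library shows. *HIF1A* was the highest at 171 RPKM, above 97.7% of the 12403 genes. It was followed by *BNIP3* (83.9 RPKM), *VEGFA* (63.7 RPKM), *EPAS1* (58.9 RPKM) and *NDRG1* (50.1 RPKM). The counting intervals of these neighbors did not overlap. *ADM* (12.3 RPKM) and *VHL* (11.05 RPKM) came next, with overlapping intervals of 11.4 to 13.3 RPKM and 9.52 to 12.8 RPKM. The interval of *VHL* may be too wide, because it rests on the smallest possible reads. *ANKRD37* (0.747 RPKM), *EGLN3* (0.0398 RPKM) and *CA9* (0.0174 RPKM) lay below 1 RPKM, and the intervals of the latter 2 genes overlapped (0.0108 to 0.102 RPKM and 0.00044 to 0.097 RPKM). The order changed with RBCK1 siRNA. With si-HOIL-1#1 *BNIP3* (85.5 RPKM) stood above *HIF1A* (77.2 RPKM), and with si-HOIL-1#2 these 2 genes had overlapping intervals (101 to 106 RPKM and 103 to 107 RPKM).

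**Figure D1:**
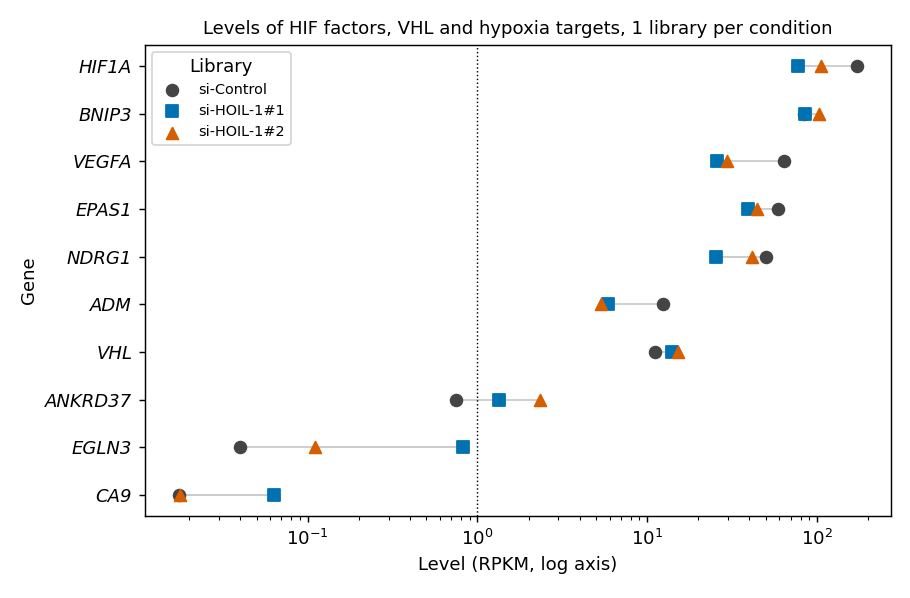
Level of each gene (RPKM, logarithmic axis) in the si-Control, si-HOIL-1#1 and si-HOIL-1#2 libraries, with 1 point per library, a gray line joining the 3 libraries and a dotted line at 1 RPKM. *HIF1A*, *VEGFA*, *EPAS1*, *NDRG1* and *ADM* were highest in si-Control, whereas *VHL*, *ANKRD37*, *BNIP3*, *EGLN3* and *CA9* had their lowest values there. Of the latter genes, *BNIP3*, *EGLN3* and *CA9* lay within counting error of at least 1 siRNA library.

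The mean of the 3 libraries reached 1 RPKM for 8 of the 10 genes, and *EGLN3* and *CA9* did not. With si-HOIL-1#1, 2 of these 8 genes (*HIF1A* and *VEGFA*) were at least 2-fold lower than in si-Control, against 3.27% of all 12403 genes, and 0 were at least 2-fold higher, against 2.91%. With si-HOIL-1#2, 2 of the 8 (*VEGFA* and *ADM*) were at least 2-fold lower, against 2.27%, and 0 were at least 2-fold higher, against 2.5%. *VEGFA* alone was at least 2-fold lower with both siRNAs, against 1.41% of all genes, and 0 members were at least 2-fold higher with both, against 1.46%. *ADM* lay just inside the limit with si-HOIL-1#1 (log2 ratio -0.96). The median log2 ratio of the 8 genes was -0.76 with si-HOIL-1#1 and -0.34 with si-HOIL-1#2, beside 0.02 and 0.03 over all genes. Both comparisons use the same si-Control library. In bulk RNA, fewer transcripts per cell and fewer cells that carry them cannot be told apart.

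**Figure D2:**
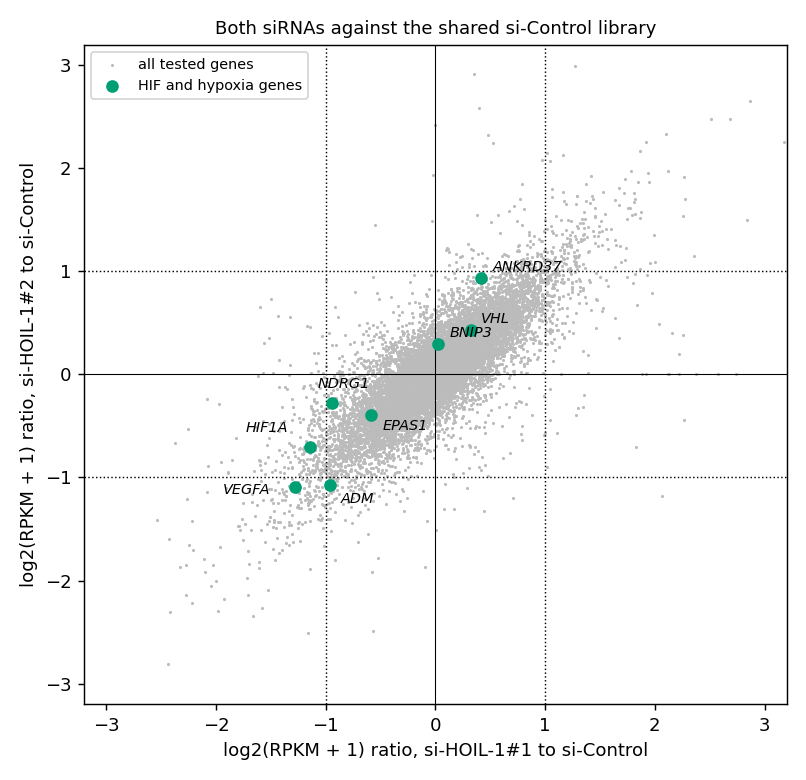
Log2(RPKM + 1) ratio to si-Control with si-HOIL-1#1 (horizontal axis) and with si-HOIL-1#2 (vertical axis) for all 12403 genes over the expression limit (gray; 1 gene lies outside the axes) and for 8 of the 10 HIF and hypoxia genes (green); dotted lines mark 2-fold. *VEGFA* is past both lower limits at -1.28 and -1.09, and *ANKRD37* (0.42 and 0.93) lies on the opposite side of both axes.

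Among the HIF subunits, *HIF1A* (hg19 chromosome 14, 62162119 to 62214977, plus strand) had 27773 reads (171 RPKM) with si-Control, 13719 (77.2 RPKM) with si-HOIL-1#1 and 16757 (105 RPKM) with si-HOIL-1#2. Both siRNA libraries were below si-Control, at 45.1% and 61.3% of its level. The log2 ratios were -1.14 and -0.70, lower than those of all but 2.07% and 6.24% of genes. On reads without a pseudocount, the ratios were -1.15 (interval -1.18 to -1.12) and -0.71 (-0.73 to -0.68), and the level with si-HOIL-1#2 was above that with si-HOIL-1#1 by 0.44 (0.41 to 0.48). The minus-strand RNAs *HIF1A-AS1*, *HIF1A-AS2* and LOC105370526 overlap *HIF1A*, and whether counting used strand is not given in the sources used here. They held between 7 and 102 reads in any library, against at least 13719 reads on *HIF1A*.
*EPAS1* (chromosome 2, 46524541 to 46613842, plus strand), which encodes the alpha subunit most tied to clear cell carcinoma, had 5615 reads (58.9 RPKM) with si-Control, 4072 (39.0 RPKM) with si-HOIL-1#1 and 4173 (44.5 RPKM) with si-HOIL-1#2. These smallest possible reads go with a length of 2583 nt, against a longest transcript of 5166 nt, so the true reads may be a multiple. *EPAS1* was lower with both siRNAs but by less than *HIF1A*, with log2 ratios of -0.58 and -0.40. In si-Control cells the *HIF1A* transcript was thus the more abundant alpha subunit transcript per length, and it was still so with each siRNA.

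*VHL* (chromosome 3, 10183319 to 10195354, plus strand), the substrate-binding subunit of the ligase that destroys HIF alpha subunits, had 186 reads (11.05 RPKM) with si-Control, 259 (14.04 RPKM) with si-HOIL-1#1 and 252 (15.2 RPKM) with si-HOIL-1#2. It was higher with both siRNAs, with log2 ratios of 0.32 and 0.43. These log2 ratios were above those of 74.1% and 81.0% of genes. The counting intervals on reads were 0.07 to 0.63 and 0.18 to 0.74, and the difference between the siRNAs was 0.11 (-0.14 to 0.37). The reads of *VHL* are the smallest possible ones, for a length of 456 nt, whereas its longest transcript has 3737 nt. The true reads may be a multiple of them, and these intervals may therefore be too wide.
*EGLN3* (chromosome 14, 34393421 to 34420284, minus strand), a prolyl hydroxylase and itself a HIF target, gave 4 reads with si-Control, 91 reads with si-HOIL-1#1 and 11 reads with si-HOIL-1#2, that is, 0.0398, 0.827 and 0.111 RPKM. The si-HOIL-1#1 library stood apart. On reads it was 20.8-fold higher than si-Control (interval 7.84 to 77.9), whereas si-HOIL-1#2 was 2.79-fold higher with an interval that holds 1 (0.828 to 12.0). The direct log2 ratio of si-HOIL-1#2 to si-HOIL-1#1 was -2.89 (-3.95 to -1.99). With the pseudocount the log2 ratios were 0.81 and 0.10, because the pseudocount exceeds every one of these levels. The pseudogene *EGLN3P1*, which could share reads with *EGLN3*, was at 0 RPKM with si-Control and si-HOIL-1#1 and at 0.140 RPKM with si-HOIL-1#2.

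Of the secreted targets, *VEGFA* (chromosome 6, 43737946 to 43754224, plus strand), the main angiogenic growth factor of clear cell carcinoma, had 8885 reads (63.7 RPKM) with si-Control, 3923 (25.7 RPKM) with si-HOIL-1#1 and 4029 (29.3 RPKM) with si-HOIL-1#2. Both siRNA libraries were well below si-Control, at 40.3% and 46.1% of it. The log2 ratios of -1.28 and -1.09 were lower than those of all but 1.35% and 1.79% of genes. The counting intervals on reads were -1.37 to -1.26 and -1.17 to -1.06. An antisense RNA inside *VEGFA* is listed at 0 in every library.
*ADM* (chromosome 11, 10326527 to 10328949, plus strand), which encodes the vasodilator peptide adrenomedullin, had 724 reads (12.3 RPKM) with si-Control, 377 (5.86 RPKM) with si-HOIL-1#1 and 308 (5.33 RPKM) with si-HOIL-1#2. It was lower with both siRNAs, with log2 ratios of -0.96 and -1.07. On reads the ratios were -1.07 (-1.26 to -0.89) and -1.21 (-1.41 to -1.02), and the siRNAs differed by -0.14 (-0.36 to 0.084), an interval that holds 0.

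*NDRG1* (chromosome 8, 134249414 to 134309547, minus strand), a stress-responsive gene much used as a hypoxia marker, differed most between the siRNAs among the well expressed genes. It had 6429 reads (50.1 RPKM) with si-Control, 3594 (25.6 RPKM) with si-HOIL-1#1 and 5205 (41.2 RPKM) with si-HOIL-1#2. The log2 ratios were -0.94 and -0.28, and si-HOIL-1#2 stood above si-HOIL-1#1 by 0.69 on reads (0.63 to 0.75).
*BNIP3* (chromosome 10, 133781187 to 133795517, minus strand), a mitophagy receptor of the mitochondrial outer membrane, had 5058 reads (83.9 RPKM) with si-Control, 5650 (85.5 RPKM) with si-HOIL-1#1 and 6123 (103 RPKM) with si-HOIL-1#2. The si-HOIL-1#1 library lay within counting error of si-Control (log2 ratio 0.03, interval on reads -0.03 to 0.08), and its ratio became -0.0273 when libraries were scaled to equal totals. With si-HOIL-1#2 the log2 ratio was 0.30 (0.24 to 0.35). The table gives *BNIP3* the gene type other, not protein-coding. It also lists 2 *BNIP3* pseudogenes, at most 0.369 RPKM in any library, that could share reads with it.
*ANKRD37* (chromosome 4, 186317840 to 186321399, plus strand), a small ankyrin repeat gene known mainly as a direct HIF-1 target, gave 26 reads with si-Control, 51 reads with si-HOIL-1#1 and 80 reads with si-HOIL-1#2, that is, 0.747, 1.34 and 2.33 RPKM. Both siRNA libraries were above si-Control. The log2 ratios were 0.42 and 0.93, and on reads the levels were 1.79-fold (1.10 to 2.99) and 3.13-fold (1.99 to 5.07) those of si-Control. Its last 706 bases overlap the minus-strand gene *UFSP2*, which went the opposite way (14.7, 8.75 and 7.55 RPKM).
*CA9* (chromosome 9, 35673915 to 35681156, plus strand), the carbonic anhydrase used as a marker of clear cell carcinoma with active HIF, gave 1, 4 and 1 reads in the same order. Its ratios on reads were 3.65-fold (0.361 to 180) and 1.02-fold (0.0129 to 79.8), so a difference was not detectable at this depth.

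**Figure D3:**
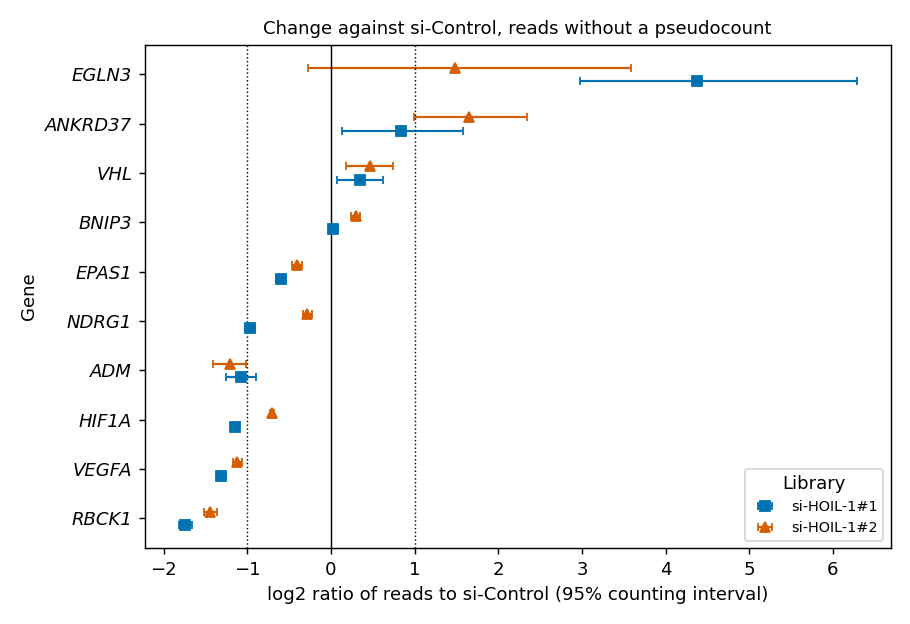
Log2 ratio of reads to si-Control without a pseudocount for *RBCK1* and 9 of the 10 genes (*CA9*, with at most 4 reads, is left out); points are single libraries, bars are exact 95% intervals for counting error, and dotted lines mark 2-fold. *VEGFA*, *HIF1A*, *ADM*, *NDRG1* and *EPAS1* lie left of 0 with both siRNAs, and the siRNAs lie far apart for *EGLN3* (4.38 and 1.48).

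The HIF complex binds DNA at the core ACGTG or GCGTG. RefSeq promoters (GRCh38.p14, 250 bases before to 50 after the gene start) were examined for 7 of the 10 genes. The 7 were *HIF1A*, *EPAS1*, *EGLN3*, *CA9*, *ADM*, *BNIP3* and *ANKRD37*. *HIF1A* had 2 entries, so the 7 genes had 8 promoters. Promoters of *VHL*, *VEGFA* and *NDRG1* were not examined, so the counts do not cover these genes. The shares of all promoters set beside the counts are descriptive only. Either core, on either strand, occurred in 6 of the 8 promoters and in 48.4% of all 35116 promoters, and ACGTG occurred in 3 of the 8 and in 21.4% of all. The promoters of a gene that was lower with both siRNAs (*ADM*), of one not lower with either (*BNIP3*), of one higher with both (*ANKRD37*) and of one higher with si-HOIL-1#1 (*EGLN3*) are shown from 5′ to 3′, with every match to a core on either strand in capitals. *ADM* has 1 match (GCGTG), *BNIP3* has 6 (2 of ACGTG, which overlap on opposite strands, and 4 of GCGTG), *ANKRD37* has 3 of ACGTG, 2 of which overlap, and *EGLN3* has 0 in this window. A match is a description of the letters, not a bound site.
*ADM* (chr11:10304823-10305122, plus strand): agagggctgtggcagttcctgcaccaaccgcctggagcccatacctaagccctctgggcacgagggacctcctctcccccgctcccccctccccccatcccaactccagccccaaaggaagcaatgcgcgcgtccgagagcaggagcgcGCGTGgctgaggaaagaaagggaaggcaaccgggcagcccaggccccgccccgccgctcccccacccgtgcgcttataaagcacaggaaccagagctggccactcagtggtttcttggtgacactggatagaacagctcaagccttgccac
*BNIP3* (chr10:131981874-131982173, minus strand): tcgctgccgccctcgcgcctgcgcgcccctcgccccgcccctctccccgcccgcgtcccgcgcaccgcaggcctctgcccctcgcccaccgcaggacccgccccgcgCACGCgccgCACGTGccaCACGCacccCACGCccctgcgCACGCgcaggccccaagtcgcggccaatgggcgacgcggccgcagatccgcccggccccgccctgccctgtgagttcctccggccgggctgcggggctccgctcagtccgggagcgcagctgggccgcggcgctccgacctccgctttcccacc
*ANKRD37* (chr4:185396591-185396890, plus strand): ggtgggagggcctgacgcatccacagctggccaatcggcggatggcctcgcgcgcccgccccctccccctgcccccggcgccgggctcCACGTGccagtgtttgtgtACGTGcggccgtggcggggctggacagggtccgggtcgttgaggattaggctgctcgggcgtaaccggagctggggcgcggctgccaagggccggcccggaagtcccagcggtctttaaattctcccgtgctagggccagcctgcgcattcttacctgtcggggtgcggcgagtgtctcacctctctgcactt
*EGLN3* (chr14:33951025-33951324, minus strand): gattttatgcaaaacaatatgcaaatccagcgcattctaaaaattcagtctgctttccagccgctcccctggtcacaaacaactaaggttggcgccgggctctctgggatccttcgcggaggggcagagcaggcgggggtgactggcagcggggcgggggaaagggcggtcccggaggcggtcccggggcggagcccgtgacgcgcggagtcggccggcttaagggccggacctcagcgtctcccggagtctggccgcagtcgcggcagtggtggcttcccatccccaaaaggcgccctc

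The other parts of the oxygen-sensing machinery differed among themselves. Of 20 listed genes, 18 reached this limit, with median log2 ratios of 0.05 (si-HOIL-1#1, -0.0053 with equal totals) and 0.10 (si-HOIL-1#2). The beta subunit gene *ARNT* was at 15.1, 19.4 and 17.2 RPKM in the order si-Control, si-HOIL-1#1 and si-HOIL-1#2, and *HIF1AN*, the asparaginyl hydroxylase that blocks HIF activity, was at 11.4, 13.3 and 12.9 RPKM. The hydroxylase genes went different ways, with *EGLN1* at 22.5, 15.9 and 21.0 RPKM and *EGLN2* at 1.02, 1.40 and 1.80 RPKM.
Among partners of VHL in its ligase, *RBX1*, the RING subunit, was higher with both siRNAs (12.0, 22.7 and 23.7 RPKM, log2 ratios of 0.87 and 0.93). The scaffold *CUL2* was slightly lower (42.04, 37.0 and 36.5 RPKM), the adaptor *ELOB* was higher (62.4, 74.9 and 79.8 RPKM), and *ELOC* was at 48.01, 46.1 and 38.3 RPKM. The differences past 2-fold were those of *CITED2*, a HIF-induced competitor for the coactivator p300, and of the HSP90 genes, whose product chaperones HIF-1α. *CITED2* was at 154, 64.6 and 100.4 RPKM (log2 ratios -1.24 and -0.61), in the same order of libraries as *HIF1A*. *HSP90AA1* was at 185, 653 and 594 RPKM (1.81 and 1.68), and *HSP90AB1* was at 507, 1039 and 864 RPKM (1.04 and 0.77).

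Within the families of the 10 genes, relatives often had other values. The VEGF ligands *VEGFB* (28.3, 30.0 and 28.0 RPKM) and *VEGFC* (42.6, 44.0 and 39.7 RPKM) had log2 ratios between -0.10 and 0.08, unlike *VEGFA*. The VEGF receptors *FLT1* and *KDR* were at most 0.035 RPKM, while the co-receptor *NRP1* was at 43.6, 32.2 and 41.99 RPKM. *ADM2*, a relative of *ADM*, was lower with both siRNAs (6.69, 2.42 and 2.33 RPKM, log2 ratios of -1.17 and -1.21). The adrenomedullin receptor *CALCRL* was at 0.634, 0.116 and 0.286 RPKM. *BNIP3L*, the closest relative of *BNIP3* and also a mitophagy receptor, was at 48.02, 16.7 and 32.6 RPKM (-1.47 and -0.55), whereas *BNIP3* was not lower. *NDRG3* was at 10.4, 13.0 and 12.4 RPKM, above si-Control where *NDRG1* was below it. Of the other carbonic anhydrases, *CA2* was at 68.01, 85.1 and 76.9 RPKM and *CA12*, also a HIF target, at 1.17, 1.19 and 1.86 RPKM.

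Beyond the 10 genes, 85 hypoxia targets were listed in 6 groups by role, and 72 of them reached the limit of 1 RPKM. These lists, too, were chosen with earlier results of these data known, so the comparisons with all genes are descriptive only. With si-HOIL-1#1, 32 of the 72 were above si-Control and 40 below, with a median of -0.10. With si-HOIL-1#2, 38 were above and 34 below, with a median of 0.04 that became -0.0095 with equal medians and -0.095 as a mean. Over all genes, 51.5% and 53.5% were above si-Control. Targets at least 2-fold lower numbered 7 of 72 with si-HOIL-1#1, beside 3.27% of all genes, and 7 of 72 with si-HOIL-1#2, beside 2.27%. With both siRNAs they numbered 4 (5.56%, beside 1.41% of all genes). The only target at least 2-fold higher, with both siRNAs, was *CCND1*, whose listed values gave no whole reads; without it the count was 0.
The groups differed in sign. The 11 mitochondrial and stress genes had medians of -0.73 and -0.75 (-0.40 and -0.43 with a pseudocount of 5 RPKM), with 10 and 8 below si-Control. Among them were *DDIT4*, an inhibitor of mTORC1 (132, 56.3 and 47.7 RPKM, -1.22 and -1.46), *HMOX1*, heme oxygenase (68.2, 16.9 and 37.3 RPKM, -1.95 and -0.85), and the apoptosis gene *PMAIP1* (40.4, 30.8 and 19.1 RPKM, -0.38 and -1.04). The 12 matrix genes had medians of -0.37 (-0.22 with that pseudocount) and -0.26, with 9 below si-Control each time and 0 past 2-fold. The 20 glycolytic genes lay the other way, with medians of 0.36 and 0.33, and 14 and 19 above si-Control. Their exception past 2-fold was *HK2*, a HIF-induced hexokinase, at 12.5, 5.41 and 10.3 RPKM (-1.08 and -0.26).
The 6 angiogenic and secreted genes, 3 above and 3 below si-Control with each siRNA, had medians of -0.20 (-0.61 as a mean) and -0.47. Over all 14 listed genes both medians were 0, but most of the 14 lie below the limit, where the pseudocount shrinks ratios toward 0. These medians of 0 cannot show whether the group shifted. The 6 held *STC2*, a secreted glycoprotein (353, 72.1 and 79.3 RPKM, -2.28 and -2.14), and *IGFBP3*, an insulin-like growth factor carrier (66.4, 14.9 and 29.5 RPKM, -2.08 and -1.14). *MIF*, *EPO* and *LEP* are listed at 0 in every library. Whether a listed 0 means no transcript or reads lost in counting cannot be told here, as the counting settings are not given. The 9 transport genes had medians of 0.01 (-0.027 with equal totals, -0.20 as a mean) and -0.24, with the lipid droplet coat gene *PLIN2* lower with both siRNAs (319, 111 and 147 RPKM, -1.51 and -1.11). The 14 regulators had medians of -0.17 and -0.09 (-0.29 and -0.14 without *CCND1*), with *MXI1*, an antagonist of MYC, at 12.3, 5.71 and 5.402 RPKM (-0.98 and -1.05). The lists share genes with other responses, and what set any of these directions was not tested.

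**Figure D4:**
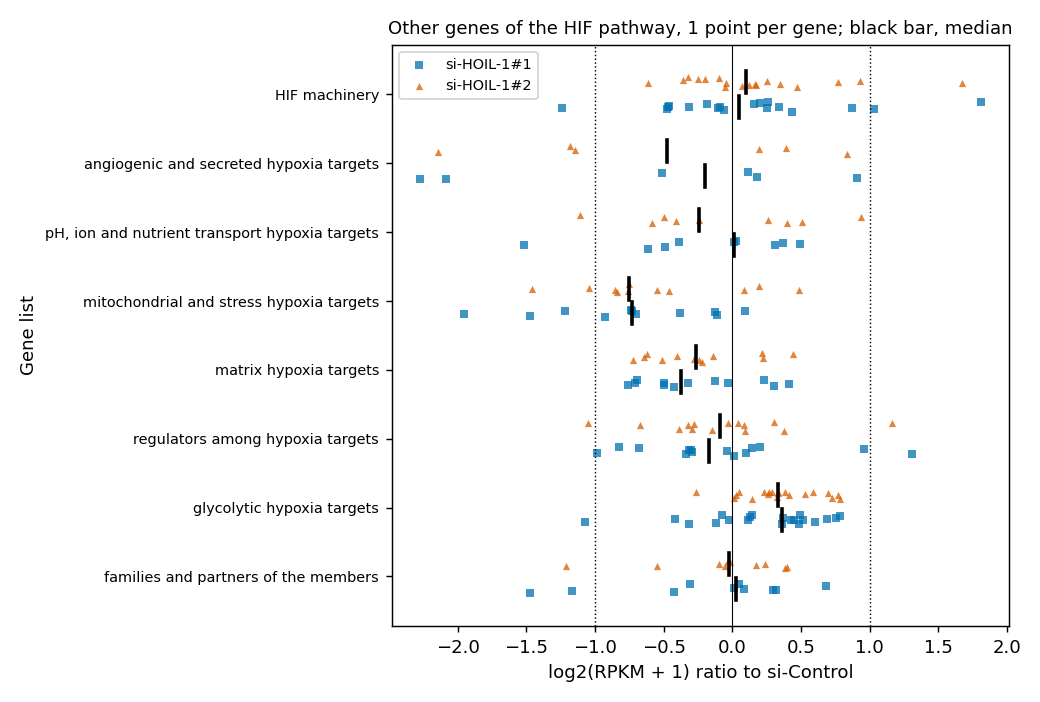
Log2(RPKM + 1) ratio to si-Control of each listed gene over the expression limit, by list, with si-HOIL-1#1 (squares) and si-HOIL-1#2 (triangles); each point is a gene, vertical scatter has no meaning, black bars are medians and dotted lines mark 2-fold. The medians of the mitochondrial and stress genes (-0.73 and -0.75) and of the glycolytic genes (0.36 and 0.33) lie on opposite sides of 0; *CCND1*, whose values gave no whole reads, is the rightmost point among the regulators.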

How the data were processed

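RNA from Caki-1 cells was depleted of ribosomal RNA and sequenced in paired-end mode, with 1 library per condition. The authors deposited 1 table of 44591 genes with a column per library. The unit of the deposited columns is not named in the table and was taken as RPKM, because their steps gave whole reads once gene length and library total were allowed for. The submitters' processing notes name FastQC, Trimmomatic, TopHat2, HTSeq and the build hg19; their settings and the annotation are not given in the sources used here. The table's columns of the authors' own comparison (control and treated values, log2 fold change, p-value and q-value) were not used.

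Library totals were read from RPKM steps of genes of at most 200 nt. For each gene, the smallest length up to 50000 nt was sought that gave whole reads in all 3 libraries within 0.001 read. Log2 ratios used a pseudocount of 1 RPKM and genes whose mean reached 1 RPKM, and 1 entry that is not a number was left out. Intervals are exact Clopper-Pearson (95%) for ratios and exact Poisson for levels. The members and lists were chosen with earlier results of these data known. Named genes were the members, *RBCK1*, genes that overlap members, any machinery or family gene, and other listed genes at least 2-fold different with at least 1 siRNA. Alternatives were other pseudocounts, scalings, filters and fold limits, recovered reads, means and leaving out *CCND1*. Values of 2 listed genes are not reported here, though they count in their lists. The steps were tested on simulated data. Promoters came from RefSeq and transcripts from GENCODE v29. The work ran in Python 3.11.15 with scipy 1.17.1, pandas 2.3.3, matplotlib 3.10.9 and numpy 2.4.6.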

Additional observations from a re-analysis of the deposited data

How the results depend on the processing

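No paired analysis was possible because a condition was represented by a single library, so none could be left out either. Of 100 log2 ratios of single members under the alternatives, 87 moved no further than from the middle of their counting interval to its end. The other 13 moved further. *BNIP3* with si-HOIL-1#1 changed sign with equal totals (-0.0273), just outside its counting interval on reads. For *RBCK1* the log2 ratios were -1.73 (pseudocount of 0.1 RPKM), -1.36 (5 RPKM) and -1.74 (reads) with si-HOIL-1#1 and -1.15 (5 RPKM) with si-HOIL-1#2. Counts depended on the pseudocount and limit, by their construction. Of the 8 members over the limit, *VEGFA* and *ADM* were at least 2-fold lower with both siRNAs at a pseudocount of 0.1 RPKM or with equal totals. With equal totals, 196 of all 12403 genes were lower with both. At a limit of 1.5-fold, 3 of the 8 were lower with both siRNAs and 4 with si-HOIL-1#1. At a pseudocount of 5 RPKM, 1 of the 8 was 2-fold lower with si-HOIL-1#2. Higher with si-HOIL-1#2 was 1 member (*ANKRD37*), at 0.1 RPKM or at 1.5-fold. The counts of all genes (higher and lower with si-HOIL-1#1, with si-HOIL-1#2, then with both) were 616, 730, 563, 522, 346 and 327 at 0.1 RPKM, 114, 105, 101, 97, 66 and 59 at 5 RPKM, and 1499, 1435, 1400, 1156, 926 and 774 at 1.5-fold. With a mean of at least 5 RPKM they were 237 higher and 218 lower with si-HOIL-1#1, 174 lower with si-HOIL-1#2 and 112 lower with both.

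Of the 72 hypoxia targets, those past 1.5-fold were 7 higher and 18 lower with si-HOIL-1#1 and 8 and 16 with si-HOIL-1#2. Of all 12403 genes, 1499 were higher and 1435 lower at that limit with si-HOIL-1#1, and 1400 and 1156 with si-HOIL-1#2. Without *CCND1*, an alternative chosen after seeing the data, 0 targets were 2-fold higher. As a mean, the 72 targets gave -0.188 with si-HOIL-1#1 and -0.0947 with si-HOIL-1#2, and the median with si-HOIL-1#2 was -0.00947 with equal medians. Other medians that changed sign were those with si-HOIL-1#1 of the machinery (-0.00525 with equal totals, -0.073 with no filter), of the transport genes (-0.0266 with equal totals, -0.179 where genes averaged 5 RPKM or more, -0.198 as a mean) and of the families (-0.0123 with equal totals, -0.193 as a mean), and that of the regulators with si-HOIL-1#2 (0.00602 where genes averaged 5 RPKM or more). Some medians did not change sign but moved over 1.5 times and by more than the typical counting error of a single gene in the list. With no filter they were both of the secreted genes (0 and 0) and those with si-HOIL-1#2 of the machinery (0.0117) and the transport genes (-0.129). At a pseudocount of 5 RPKM they were those of the mitochondrial and stress genes (-0.401 and -0.432) and, with si-HOIL-1#1, of the matrix genes (-0.223). As means, the secreted (-0.61) and glycolytic genes (0.215) moved with si-HOIL-1#1 and the transport genes (-0.0822) with si-HOIL-1#2. Where genes averaged 5 RPKM or more, the machinery (0.156) and the regulators (-0.0141) moved with si-HOIL-1#1, as did the regulators without *CCND1* (-0.29). The cause was not tested. Depth limits *EGLN3*, *CA9* and *ANKRD37*, which rest on 1 to 91 reads.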

Other observations

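The seed matches of the siRNAs in the longest protein-coding GENCODE v29 transcript of each gene were listed for the 10 genes, and what part they had in any ratio was not tested. The 7-base match to the si-HOIL-1#1 seed (ATCAACA) was in 0 of the 10 transcripts and in 22.3% of 19669 genes. The match to the si-HOIL-1#2 seed (GATTTCT) was in those of *VHL*, *EGLN3*, *ADM*, *BNIP3* (1 match each) and *NDRG1* (2 matches), and in 25.9% of genes. Of these 5 genes with a match to the si-HOIL-1#2 seed, *ADM* and *NDRG1* were below si-Control with that siRNA (log2 ratios -1.07 and -0.28), and *VHL*, *BNIP3* and *EGLN3* were not (0.43, 0.30 and 0.10). *HIF1A*, *EPAS1*, *VEGFA*, *CA9* and *ANKRD37* had no match to either seed. The full sense strands matched 1 gene each, *RBCK1*.

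Of the 6 renal markers over the expression limit, *VIM* and *KRT8* were at least 2-fold higher with both siRNAs, beside 1.46% of all genes. *VIM* was at 664, 1512 and 1392 RPKM in the order si-Control, si-HOIL-1#1 and si-HOIL-1#2 (log2 ratios 1.19 and 1.07). *KRT8* was at 65.6, 172 and 238 RPKM (1.38 and 1.84). *KRT18* (0.57 and 0.84) and *CD70* (0.79 and 0.80) were also higher with both, by less than 2-fold. *PAX8* was lower with both, at 124, 82.5 and 107 RPKM (-0.59 and -0.22).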
